A study of Mus musculus with 4514 samples.

Results

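Hepatocytes taken at postnatal day 3 (P3, the cells labelled P3_1 to P3_172) were compared with hepatocytes taken at postnatal day 6 (P6, the cells labelled P6_1 to P6_131). The cells were chosen by the age in their labels and make up 6.71% of the 4514 samples in the series. All came from the liver of mice carrying Alb-Cre, a recombinase driven by the albumin promoter, and the Rosa-tdTomato reporter, so both ages share both alleles, and neither age had a treatment in its labels. Each sample is 1 cell, picked singly and sequenced by mSTRT-seq, in which the cDNA of each cell carries a barcode and the cDNA of many cells is pooled into a library. No label names an animal, a litter, a sex or a library, so each age was summed into 1 pool and counts as 1 sample. There is therefore no replicate of either age and no test, and "higher" and "lower" describe these 2 pools.

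In the days after birth the mouse liver feeds on milk, which is rich in fat and poor in sugar. Hepatocytes then burn fatty acids and release ketone bodies, make glucose, and begin to build the enzymes of the mature liver while genes of the fetal liver are shut off. The fetal liver is also a site of blood formation, so its hepatocytes sit among red cell precursors. The genes named as markers of this step are Tff3, a trefoil peptide of mucosal surfaces, Dlk1, a membrane protein of hepatoblasts encoded by an imprinted gene, and Tmsb10, a peptide that binds actin monomers.

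The P3 pool held 25702986 counts and the P6 pool 23083951, with a median of 145920 counts and 6499 genes per P3 cell and of 164763 counts and 6788 genes per P6 cell. Levels are given as CPM, the counts of a gene per 1000000 counts of the pool, without spike-ins. The hepatocyte genes were high at both ages, with Alb at 23364 CPM at P3 and 22288 CPM at P6. No count of Xist, the RNA of the inactive X chromosome, was found in either pool, which allows up to 0.117 CPM at P3 and 0.130 CPM at P6, while the Y-linked Ddx3y stood at 52.1 and 56.5 CPM.

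The cells of 1 age did not form an even set. In the order of their label numbers, the share of spike-in counts moved in steps, and these steps, together with the counts of the insulin genes, divided the P3 cells into 4 runs and the P6 cells into 2. The P3 runs were 37 cells (P3_1 to P3_37), 62 cells (P3_38 to P3_99), 28 cells (P3_100 to P3_127) and 45 cells (P3_128 to P3_172), with median spike-in shares of 2.85%, 1.07%, 0.636% and 0.0602%. The P6 runs were 65 cells (P6_1 to P6_65) and 66 cells (P6_66 to P6_131), with medians of 1.78% and 0.572%. What the runs stand for is not in the labels. They are neither groups nor replicates of the study, and age cannot be told apart from whatever else differed between runs.

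Genes of another organ were counted in the third P3 run. Ins1, Ins2 and Iapp encode hormones of the pancreatic islet. Insulin counts helped to set the limits of that run, so they are given as a description. All 28 of its cells held insulin counts, between 693 and 2635 CPM per cell, against 1 of 37 cells in the first P3 run, 1 of 66 in the second P6 run and none in the other 3 runs. Iapp stood at 134.03 CPM in that run and at 0 in every other run. The fourth P3 run was the shallowest, with a median of 91668 counts per cell. Rpl23a, a ribosomal protein gene, was at 694 CPM there and at 39.4 CPM or less in each other run. In all, 35 tested genes had a level of at least 20 CPM in 1 run that was at least 5 times that in each other run. Of these, 21 were highest in the fourth P3 run, 13 in the third and 1, Gbp2, in the first. Many of these have symbols of pseudogenes or predicted genes, such as Gm10073, Rps12-ps9 and Rps25-ps1 in the fourth run and Gm11361 in the third. Whether reads of near-identical copies were assigned differently between runs was not tested, so levels high in 1 run alone are uncertain.

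Of 7929 genes with a mean of at least 5 CPM over the pools, 2.04% were at least 2-fold higher at P6, and 81 genes or 1.02% were at least 2-fold lower. These shares are the background for the counts of list members past 2-fold given below. The median log2 ratio of P6 over P3 was 0.10. Scaling the pools by trimmed means (TMM) lowered that median to -0.01 and gave 1.301% higher and 1.23% lower, so calls near 2-fold on the upper side depend on the scaling. From P0 to P3, 665 of 7676 genes (8.66%) were at least 2-fold higher and 400 (5.21%) at least 2-fold lower. From P6 to P9, 1.25% of 8152 genes were higher and 94 (1.15%) lower. These steps share the P3 and P6 pools with the present one.

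The difference between the ages was no larger than that between runs of 1 age. Among the 6 pairs of P3 runs, 9.41% to 13.5% of genes differed at least 2-fold, and between the P6 runs 8.15% did. Among the 8 pairs of a P3 run and a P6 run the share was 6.13% to 13.1%. Each gene was therefore also compared run by run. For 14.4% of the 7929 genes both P6 runs lay on 1 side of all 4 P3 runs, above them in 955 genes (12.04%) and below them in 2.33% of the genes. A 2-fold difference of the pools and runs that did not overlap ("runs apart") were found together in 1.44% of genes on the higher side and in 25 genes (0.315%) on the lower side. The other 48 higher and 56 lower genes had runs that overlapped. With so few runs, runs apart can also arise where age makes no difference, so the term is a description and not a test. The runs were compared in CPM alone, and the split into above and below may move with the scaling.

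**Figure D1:**
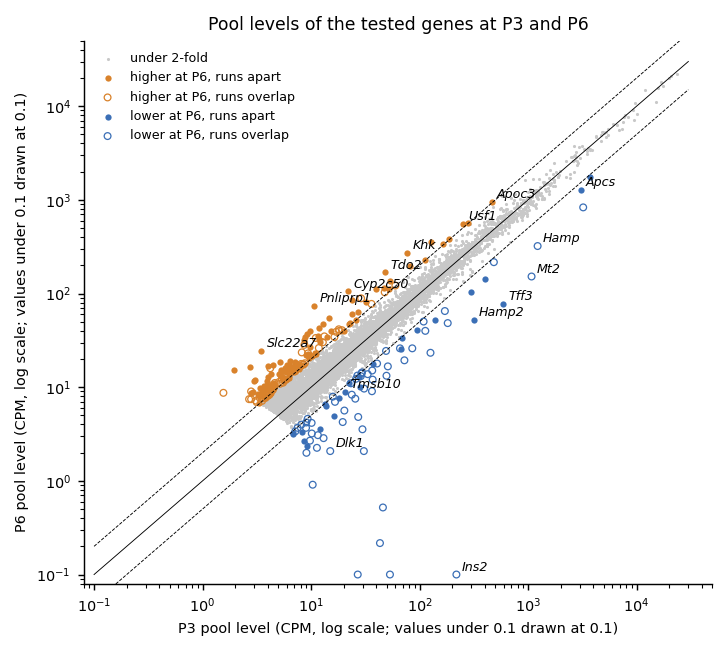
Level of each of the 7929 tested genes in the P3 pool (horizontal) and in the P6 pool (vertical), in CPM on log axes; values under 0.1 CPM are drawn at 0.1. Filled points are genes at least 2-fold apart whose P6 runs all lay on 1 side of the P3 runs (1.44% of genes higher, 0.315% lower), open points those whose runs overlapped, and dashed lines mark 2-fold. Most of the lower genes are open points.

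Tff3 had the largest ratio of the 25 lower genes with runs apart. Its levels in the P3 runs were 380, 624, 881 and 467 CPM, and in the P6 runs 53.8 and 100.2 CPM. Every P3 run was thus at least 3 times as high as either P6 run. The pools stood at 589 CPM (95% Poisson interval 580 to 599) and 77.8 CPM (74.3 to 81.5), a 7.57-fold lower level at P6 (log2 ratio -2.92). All such intervals cover counting error only. Leaving out 1 run at a time kept the log2 ratio between -3.45 and -2.56. The median cell held 349 CPM at P3 and 26.8 CPM at P6, and 28 P3 cells but no P6 cell were above 1000 CPM. In cells thinned to 80713 counts each, Tff3 was seen in 95.9% of P3 cells (95% Clopper-Pearson interval 91.3% to 98.5%) and 69.6% of P6 cells (60.7% to 77.5%). Intervals of shares treat each cell as an independent draw. They leave out the differences between runs and animals, so they do not measure how far the ages differ. Thinning left out 25 P3 cells, 19 of them of the fourth run, and 6 P6 cells that were shallower.

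Dlk1 was lower by 7.22-fold, from 15.02 CPM (13.6 to 16.6) to 2.08 CPM (1.53 to 2.76), but this rested on 1 run. The P3 runs held 2.09, 3.03, 61.6 and 5.63 CPM and the P6 runs 1.80 and 2.34 CPM, so the first P3 run lay between the P6 runs. The third P3 run, the one with counts of islet genes, gave 82.4% of all Dlk1 counts at P3. Without it the P3 level was 3.31 CPM and the log2 ratio -0.67, against -2.85 with it. Dlk1 was seen in 72% of the thinned cells of that run and in 8.11% to 30.8% of the cells of the other P3 runs, and in 6.56% and 7.81% in the P6 runs.

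Tmsb10 stood at 20.5 CPM (18.8 to 22.3) at P3 and 8.97 CPM (7.79 to 10.3) at P6, 2.29-fold lower. Its P3 runs held 27.05, 11.4, 28.7 and 22.1 CPM and its P6 runs 8.81 and 9.12 CPM. The runs did not overlap, although the second P3 run came close to the P6 runs. The share of thinned cells with a count was 59.9% (51.5% to 67.9%) at P3 and 42.4% (33.6% to 51.6%) at P6.

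Over the 11 ages from E17.5 to P30, the 3 genes took different courses. Tmsb10 began at 2154 CPM on E17.5 and 2201 CPM on E19.5 and had lost most of that level by P0 (160 CPM). Dlk1 held 340 and 240 CPM at the ages before birth and 19.8 CPM at P0. Tff3 was still at 2465 CPM at P0, its highest level of the series of ages, and reached 20.2 CPM at P9. Among 4463 genes with a mean of at least 20 CPM over these ages, the course of Tff3 was most like that of Fgb, the beta chain of fibrinogen (Pearson r = 0.98 over the 11 pools on the log2 scale, from 1 pool an age), followed by Bet1l, Fgg, which is the gamma chain of fibrinogen (r = 0.97), Ggt1 and Bola2. Fgb itself was 7337 CPM at P3 and 5737 CPM at P6. The closest courses to Dlk1 were those of Ggt1, Atp6v1g1 and Slc36a2, and to Tmsb10 those of Slc36a2 (r = 0.98), Gm4604, a predicted gene, Tmem9 and Pla2g12a. Ggt1, a glutathione-degrading enzyme of fetal liver, was at 6.69 and 3.21 CPM at P3 and P6, and Slc36a2, an amino acid transporter, at 2.88 and 0.303 CPM.

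**Figure D2:**
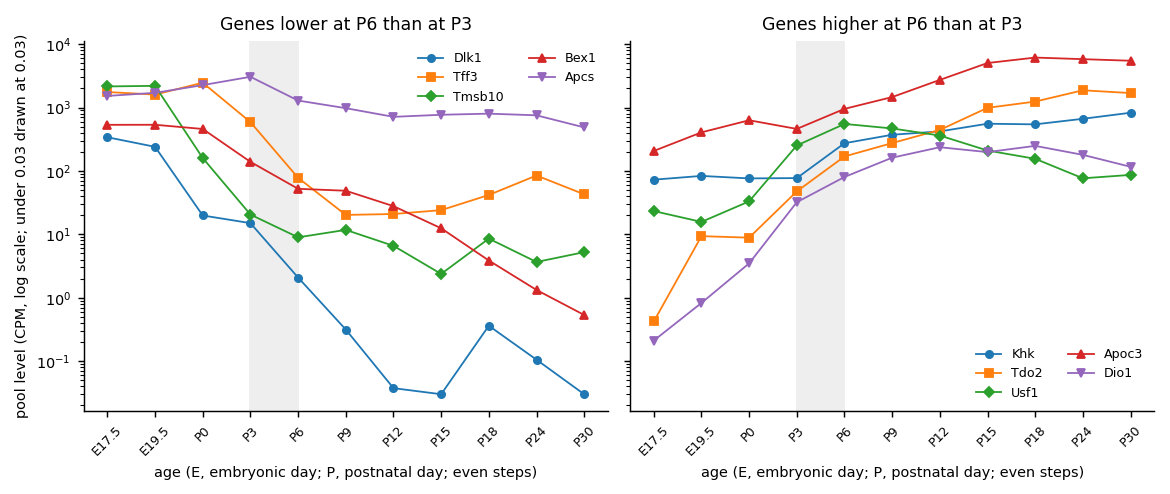
Pool levels in CPM (log axis) at the 11 ages from E17.5 to P30, drawn at even steps; the grey band marks P3 to P6 and values under 0.03 CPM are drawn at 0.03. Tmsb10 had dropped from 2201 CPM at E19.5 to 20.5 CPM by P3, whereas Khk stayed between 72.8 and 83.5 CPM up to P3 and stood at 273.7 CPM at P6.

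Of 18 genes of a fetal liver list, 12 were tested. None was 2-fold higher and 4 were 2-fold lower, namely Tff3, Dlk1, A2m and Bex1, beside 2.04% and 1.02% of all tested genes. Tff3 and Dlk1 are markers named for this step, so their lower level is not a separate result of this list. The median log2 ratio was -0.16 beside 0.10 for all tested genes. The runs were apart for Tff3 and Bex1 alone. Bex1, a small adaptor protein gene on the X chromosome, was at 170, 155.2, 102.3 and 102.8 CPM in the P3 runs and at 46.5 and 57.6 CPM in the P6 runs. Its neighbour in the family, Bex2, went from 400 to 144.1 CPM (2.77-fold lower). The gap between runs of Bex2 was narrow, with 173.4 CPM in the first P3 run and 156.6 CPM in the second P6 run. Without the second P3 run the log2 ratio of Bex2 was -1.01 in place of -1.47. A2m, a protease inhibitor, was at 282.4 CPM in the third P3 run and at 30.8 to 46.6 CPM in the other P3 runs, which overlapped the P6 runs at 36.8 and 15.9 CPM (log2 ratio -1.72, and -0.48 without the third P3 run). The classic fetal genes had not shut off by P6. Afp, the fetal serum albumin homologue, was at 15038 and 11055 CPM, Igf2 at 1583 and 1453 CPM, and H19, an imprinted noncoding RNA, at 1741 and 2468 CPM.

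Among secreted proteins, Apcs, the serum amyloid P component, was 2.37-fold lower, from 3057 to 1289 CPM, with P3 runs of 2545, 3275, 3673 and 2569 CPM and P6 runs of 1395 and 1191 CPM. Serpina1e, an alpha-1-antitrypsin copy, went from 3740 to 1748 CPM, but near-identical copies of this family could share reads, so the copy is uncertain. Its log2 ratio of -1.10 became -0.94 without the third P3 run and -0.90 without the second P6 run. Of 16 tested acute phase genes, 4 were lower (Orm1, Saa3, Lcn2 and Apcs) and 1 was higher (Saa1, 8.68 to 28.3 CPM). The shares over all tested genes were 1.02% lower and 2.04% higher. The median log2 ratio of the list was -0.21, or -0.06 without the third P3 run. Lcn2, a protein that binds bacterial iron carriers, was at 281.4, 112.02, 850 and 105.2 CPM in the P3 runs and at 102.4 and 104.4 CPM in the P6 runs. The fourth P3 run was almost level with the P6 runs, and without the third P3 run its log2 ratio was -0.65 in place of -1.54. Orm1 and Saa3 had runs that overlapped, and the log2 ratio of Saa1 was 0.55 without the first P6 run, against 1.71 with it. Among 56 tested plasma protein genes, Apoc3 was the 1 called higher and Apoa4 the 1 called lower. Apoc3, an inhibitor of triglyceride clearance, was 2.07-fold higher, at 460 and 954 CPM, with every P6 run above every P3 run (594 CPM at most at P3, 914 CPM at least at P6). Apoa4, a lipoprotein made under a fat load, was at 65.3 to 748 CPM in the P3 runs and at 273.4 and 162.9 CPM in the P6 runs, which overlapped (log2 ratio -1.16, and -0.56 without the second P3 run).

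Genes of serine synthesis were lower. Phgdh and Psat1, the first and second enzymes of that path, went from 37.2 to 17.9 CPM and from 69.1 to 33.1 CPM. The P3 runs of Psat1 held 69.1, 61.5, 85.2 and 67.4 CPM and its P6 runs 29.1 and 36.9 CPM. For Phgdh the gap was narrow, with 25.8 CPM in the first P3 run and 24.8 CPM in the second P6 run. Both ratios were close to 2-fold: without the first P6 run the log2 ratio was -0.59 for Phgdh, in place of -1.05, and -0.91 for Psat1, in place of -1.06. They were the 2 members past 2-fold of 11 tested genes of the ATF4 response, a response to lack of amino acids. The median log2 ratio of that list was -0.06, and 1.02% of all tested genes were lower. Acot1, a thioesterase that frees fatty acids from coenzyme A, was 3.31-fold lower, at 14.8, 18.5, 17.4 and 11.5 CPM in the P3 runs and at 3.32 and 6.36 CPM in the P6 runs. It had stood at 445 CPM at P0. Acot1 was the 1 gene past 2-fold of 31 tested genes of fatty acid oxidation and ketogenesis, whose median was 0.05. Cpt1a, which commits fatty acids to mitochondria, was at 216.8 and 252.9 CPM. Myc, a growth transcription factor, went from 9.10 to 2.38 CPM and Gadd45b, a stress response gene, from 28.2 to 10.01 CPM, both with runs apart. The closest P3 and P6 runs of Gadd45b were almost level (log2 ratio -0.03), against -0.44 for Myc.

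Khk, ketohexokinase, the enzyme that phosphorylates fructose, stood at 81.6, 76.7, 72.6 and 76.8 CPM in the P3 runs and at 290 and 258.7 CPM in the P6 runs. The P3 runs lay within a narrow band and both P6 runs were more than 3 times as high as any of them. The pools were at 77.1 CPM (73.8 to 80.6) and 273.7 CPM (266.99 to 280.5), a 3.55-fold difference (log2 ratio 1.83), and the log2 ratio stayed between 1.69 and 1.91 under every alternative tried. The whole distribution over cells was shifted, from quartiles of 39.7 and 100.9 CPM at P3 to 163.7 and 337.2 CPM at P6, and the lowest P6 cell still held 65.7 CPM. Tdo2, tryptophan dioxygenase, the first enzyme of tryptophan breakdown, went from 47.6 to 169.3 CPM (3.56-fold), with 33.97, 42.7, 86.4 and 32.4 CPM in the P3 runs and 182.4 and 157.1 CPM in the P6 runs. Tdo2 was seen in 68.7% of thinned P3 cells (60.5% to 76.1%) and 92.8% of thinned P6 cells (86.8% to 96.7%), whereas Khk was seen in nearly all at both ages (97.96% and 100%). Khk was the 1 gene past 2-fold of 19 tested genes of glucose and galactose handling (median 0.04), and Tdo2 the 1 of 24 of amino acid breakdown (median 0.04).

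Usf1, a transcription factor that binds E-boxes in genes of sugar and fat metabolism, was at 253.1, 260, 227.4 and 262.75 CPM in the P3 runs and at 564 and 540 CPM in the P6 runs, 2.19-fold higher (log2 ratio 1.13, and 0.99 with median-of-ratios scaling). It was the 1 member past 2-fold of 32 tested liver transcription factors, whose median log2 ratio was 0.17, or 0.05 without the first P6 run, below the median of all tested genes. In 8 of the 32 both P6 runs lay above all P3 runs, beside 12.04% of all tested genes. Among them were Tef (12.6 to 24.9 CPM), Zhx3 (11.9 to 22.96 CPM), Zbtb20 (28.6 to 51.7 CPM) and Nfib (56.3 to 87.9 CPM). In none of the 32 did both P6 runs lie below all P3 runs, beside 2.33% of all tested genes. Hnf4a, a master regulator of hepatocytes, was at 70.6 and 79.4 CPM. Usf1 itself was at 33.1 CPM at P0 and peaked at P6 among the 11 ages.

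An E-box lies upstream of Khk and is shown because Khk and Usf1 were both higher in every P6 run. The 30 bases below run from 83 to 54 bases before an annotated start of Khk in the RefSeq promoter table (GRCm38.p6, chr5:30921476-30921505, plus strand), with the E-box CACGTG in capitals.
Khk: agcgttccccgtCACGTGacaccgttaatc
CACGTG reads the same on both strands. In the 250 bases before a start, 6.02% of all 32851 promoters in that table held it, as did 10.6% of the 5998 tested genes with an entry. Of the genes that were higher with runs apart, 74 had an entry and 5 of these (6.76%) held it. The match is a description of these letters and says nothing of binding. Across the cells of a run, Spearman's rho of Khk with Usf1 lay between -0.07 and 0.21 (28 to 66 cells a run).

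Of 41 tested drug metabolism genes, 4 were higher (Cyp2c50, Cyp2c54, Adh4 and Slc22a7) and 1 was lower (Cyp2f2). Over all tested genes 2.04% were higher and 1.02% lower. The median of the list was 0.24. Without the first P6 run that median was 0.06, below the median of all tested genes. In 10 of the 41 both P6 runs lay above all P3 runs, beside 12.04% of all tested genes. Cyp2c54 and Cyp2f2 rested on single runs, with log2 ratios of 0.52 without the second P6 run (1.04 with it) and -0.70 without the first P3 run (-1.06 with it). Slc22a7, the organic anion transporter OAT2, was at 4.67, 2.53, 5.81 and 1.13 CPM in the P3 runs and at 31.1 and 18.1 CPM in the P6 runs (7.03-fold), and was seen in 16.3% of thinned P3 cells and 56% of thinned P6 cells. It had no count at P0 and stood at 76.2 CPM at P9. Cyp2c50, a cytochrome P450 of a family whose copies may share reads, went from 21.7 to 105.8 CPM. The carboxylesterases Ces2e (128.43 to 359 CPM) and Ces2g (5.76 to 15.985 CPM), the sulfotransferases Sult2a5 (23.7 to 85.5 CPM) and Sult2a6 (9.18 to 37.1 CPM), the phosphate transporter family member Slc17a4 (9.69 to 39.4 CPM) and the retinol dehydrogenase Rdh16 (1.95 to 15.3 CPM) were higher too, each with runs apart. Gclc, the limiting enzyme of glutathione synthesis, went from 52.6 to 110.9 CPM, and Ugt2b36, a glucuronyl transferase, from 163.6 to 337.9 CPM. Under TMM scaling Gclc, Ugt2b36, Apoc3, Adh4 and Cyp2c54 were above 1-fold but short of 2-fold.

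**Figure D3:**
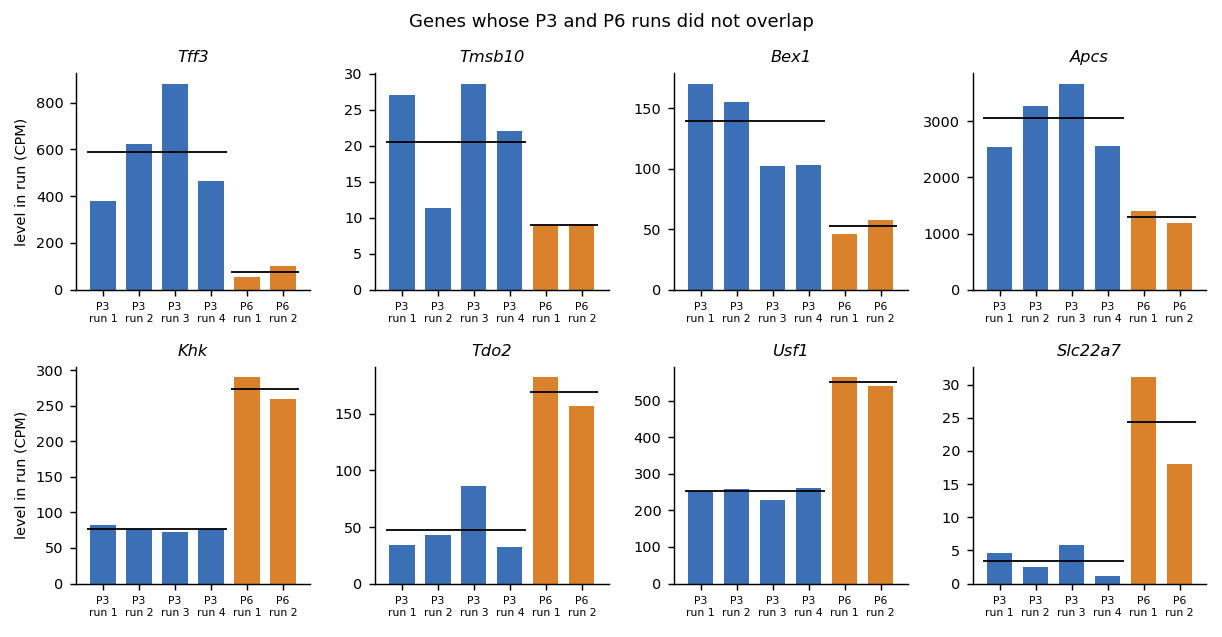
Level in CPM of 8 genes in each run of cells, 4 runs at P3 (blue) and 2 at P6 (orange); horizontal lines are the pool levels and each panel has its own axis from 0. In all 8 panels both P6 bars lie on 1 side of all P3 bars, as for Khk (72.6 to 81.6 CPM at P3, 258.7 and 290 CPM at P6).

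Several secreted or surface proteins were also higher with runs apart. Pnliprp1, a lipase-related protein known from pancreas, went from 10.7 to 74.4 CPM (6.96-fold), with 12.3 CPM in the second and 5.04 CPM in the third P3 run and 74.2 and 74.6 CPM in the P6 runs. The highest P3 run was neither the second nor the third, and the log2 ratio between the closest P3 and P6 runs was 2.46. The third P3 run, which has counts of islet genes, held the least Pnliprp1. A part of pancreatic RNA in these levels was not tested. Prg4, lubricin, went from 8.79 to 33.96 CPM, and its share of thinned cells moved from 36.1% to 81.6%, the largest difference in share of the named genes. Serpina6, the carrier of glucocorticoids in blood, went from 12.99 to 47.1 CPM. On E17.5 it had been at 592 CPM, and at P0 at 3.83 CPM. Dio1, the deiodinase that activates thyroid hormone, went from 32.1 to 80.3 CPM and was the 1 of 11 tested thyroid and glucocorticoid genes past 2-fold (median 0.29, or 0.09 without the first P6 run), although its log2 ratio of 1.32 became 0.99 without the first P6 run. Notum, an enzyme that inactivates Wnt ligands and a Wnt target of pericentral hepatocytes, went from 5.21 to 18.7 CPM. Of the 25 tested pericentral genes 7, including Lect2 (470 to 840 CPM), had both P6 runs above all P3 runs, beside 12.04% of all tested genes. Notum is not a member of that list. The 1 member past 2-fold, Hamp, was lower and the median was 0.25, while Glul and Cyp2e1 had runs that overlapped. Of the 27 tested periportal genes none had both P6 runs above all P3 runs and 1 had both below, beside 12.04% and 2.33% of all tested genes. The 1 periportal member past 2-fold, Cyp2f2, was lower. The median of the periportal list was -0.13, or -0.28 without the first P6 run.

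By the share of thinned cells with a count, 100 of 16454 genes (0.608%) were at least 20 percentage points higher at P6 and 27 (0.164%) at least 20 points lower. The runs were apart in 74 and 15 of these. With another random seed for the thinning, 100 genes were higher and 36 lower. Besides Prg4, the share was higher in Slc17a4 (36.1% to 78.4%), Slc22a7, Rdh16 (12.2% to 48.8%) and Adamts7, a metalloprotease (25.9% to 62.4%). It was lower in Ece2 (74.1% to 44%), a peptidase, in Acss1 (45.6% to 16%), which activates acetate in mitochondria, and in Hamp2 (76.2% to 47.2%).

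Hepcidin was lower, with wide differences between runs. Hepcidin is the liver hormone that blocks iron release into blood; the mouse has 2 genes, Hamp and Hamp2, side by side on chromosome 7 (30942368 to 30944029 and 30922372 to 30924181 on GRCm38.p6). Hamp was at 846, 589, 3737 and 247.4 CPM in the P3 runs and at 28.8 and 594 CPM in the P6 runs. The runs overlapped, and without the third P3 run the log2 ratio was -0.88 in place of -1.93. Hamp2 was at 174.04, 106.9, 482 and 781 CPM in the P3 runs and at 7.01 and 94.7 CPM in the P6 runs, 6.01-fold lower with runs apart. The third P3 run was highest for Hamp and the fourth for Hamp2. Within a run, the genes varied together from cell to cell, with Spearman's rho of 0.88 to 0.96 in the 4 P3 runs, 0.58 in the first P6 run and 0.91 in the second (28 to 66 cells a run). Reads that both genes share could add to this. Of 22 tested genes of iron and heme, Hamp and Hamp2 were lower and Tfrc was higher. Over all tested genes 1.02% were lower and 2.04% higher. Tfrc, the receptor that takes up transferrin iron, went from 23.7 to 60.6 CPM. Its P3 runs held 20.1, 28.9, 24.6 and 15.999 CPM and its P6 runs 87.2 and 35.9 CPM. Without the first P6 run the log2 ratio of Tfrc was 0.60 in place of 1.36. Id1 and Smad7, which like hepcidin respond to bone morphogenetic proteins (BMP), were at 79.9 and 86.4 CPM and at 4.59 and 7.71 CPM.

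The sequences upstream of the 2 hepcidin genes are shown because they were lower together at P6 and varied together from cell to cell. The 160 bases before each start (RefSeq promoter table, GRCm38.p6, minus strand, chr7:30944030-30944189 for Hamp and chr7:30924182-30924341 for Hamp2) are given with GGCGCC, the core of the BMP element, and TTCNNNGAA, the core of the STAT element, in capitals.
Hamp: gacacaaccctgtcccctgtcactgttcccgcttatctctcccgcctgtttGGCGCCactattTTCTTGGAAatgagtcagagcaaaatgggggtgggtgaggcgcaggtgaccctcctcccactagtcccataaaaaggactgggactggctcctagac
Hamp2: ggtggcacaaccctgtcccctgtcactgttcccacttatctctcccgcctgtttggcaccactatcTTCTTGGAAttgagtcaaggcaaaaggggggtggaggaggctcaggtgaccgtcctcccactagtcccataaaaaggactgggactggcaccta
Over 250 bases before the start the genes were 89.7% identical once aligned. Both hold the STAT core, 97 to 89 bases before the start in Hamp and 94 to 86 in Hamp2. The BMP core is in Hamp alone, and the change from Hamp to Hamp2 there is G4A, counted from the first base of that core. Both motifs read the same on both strands and do not overlap. GGCGCC was in 9.59% of all promoters and in 19.8% of those of tested genes, and TTCNNNGAA in 7.02% and 6.90%.

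Metallothioneins, which bind zinc and copper, were lower in the P6 pool, and much of that difference lay in 1 run. Mt1 was at 648, 1602, 9932 and 2625 CPM in the P3 runs and at 906 and 762 CPM in the P6 runs. Mt2 was at 131.05, 312.2, 4167 and 510 CPM at P3 and at 138.01 and 164.96 CPM at P6. The first P3 run lay below both P6 runs for both genes. The third gave 61.9% of the Mt1 counts and 77.7% of the Mt2 counts at P3, and without it the log2 ratios were -0.88 and -0.98 in place of -1.95 and -2.83. In 4 of the 11 tested metal handling genes, Ccs, Atp7b, Slc30a1 and Slc39a8, both P6 runs lay above all P3 runs, beside 12.04% of all tested genes. None of them reached 2-fold. Gbp2, an interferon-induced GTPase, was at 430 CPM in the first P3 run and at 6.20 to 14.4 CPM in the other P3 runs. It was lower at P6 over all cells, at 39.9 CPM against 112.98 CPM, and higher without that run (log2 ratio 1.73). Of 10 tested interferon genes 2 were past 2-fold, Gbp2 and Ifit1, both lower, beside 1.02% of all tested genes. Without the first P3 run the log2 ratio of Ifit1 was -0.36 in place of -1.66. The summed list stood at 2365 CPM in the first P3 run, 272.7 to 402 CPM in the others, and 301.5 and 1113 CPM in the P6 runs.

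Cell cycle genes were higher in the P6 pool, but the runs differed more than the ages. All 14 tested genes of S phase and all 16 of G2 and M phase had a ratio above 1. The medians were 0.66 and 0.73, and 37.3% of all tested genes had a ratio below 1. In each list 2 genes were past 2-fold (Mcm5 and Rrm2, Ccnb1 and Ccnb2), beside 2.04% of all tested genes. The G2 and M list summed to 79.9, 90.3, 379 and 589 CPM in the P3 runs and to 48.5 and 644 CPM in the P6 runs. The first P6 run was thus the lowest and the second the highest of all 6, and no gene of either list had runs apart. Under TMM scaling Mcm5, Ccnb1 and Ccnb2 fell short of 2-fold. Without the second P6 run the median of the G2 and M list was -2.32 and that of the S phase list -0.47. Ccnb2, which drives entry into mitosis, was seen in 11.5% and 45.3% of the thinned cells of the P6 runs and in 16.2% to 28% of those of the P3 runs. Fos, Junb and Egr1, immediate early genes that cell isolation can induce, were higher in the pool with runs that overlapped as well. Egr1 was at 12.3 CPM in the first and 63.8 CPM in the second P6 run, and at 5.86 to 27.1 CPM at P3. They were 3 of 13 tested genes of that list, beside 2.04% of all tested genes. The median of the list was 0.21, or -0.11 without the second P6 run.

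**Figure D4:**
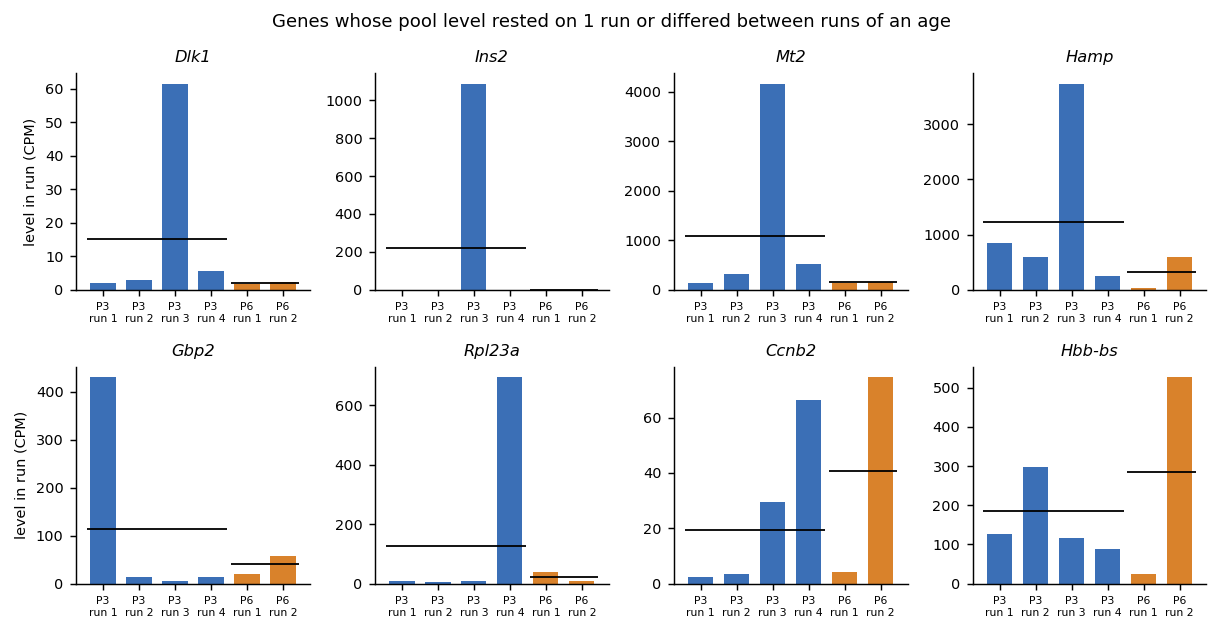
Level in CPM of 8 genes in each run of cells, 4 runs at P3 (blue) and 2 at P6 (orange); horizontal lines are the pool levels and each panel has its own axis from 0. Dlk1, Ins2, Mt2 and Hamp were highest in the third P3 run, Gbp2 in the first and Rpl23a in the fourth, while Ccnb2 and Hbb-bs were highest in the second P6 run.

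Large gene groups shifted by small amounts. Of 81 tested ribosomal protein genes 78 had a ratio below 1, as did 37.3% of all tested genes, the median was -0.24 and 19 had both P6 runs below all P3 runs, beside 2.33% of all tested genes. The 1 past 2-fold, Rpl23a, rested on the fourth P3 run. The summed list was at 62025 to 87061 CPM in the P3 runs and at 59700 and 62896 CPM in the P6 runs, which overlapped. Of 22 tested cholesterol synthesis genes 19 had a ratio below 1 and the median was -0.28, with none past 2-fold. Without the first P3 run that median was -0.05. Of 20 genes of the unfolded protein response none was past 2-fold and the median was -0.35, or -0.15 without the first P3 run. Manf, a secreted stress protein, went from 250 to 136.8 CPM with runs apart, while Hspa5, the main chaperone of the endoplasmic reticulum, at 1192 and 818 CPM, had runs that overlapped. The 46 tested genes of oxidative phosphorylation had a median of 0.09 and 1 gene past 2-fold, Cox5a, which was at 258.9 CPM in the fourth P3 run and at 26.1 CPM or less in every other run. The 10 urea cycle genes had a median of -0.08 and none past 2-fold. In the clock list Per3 was the 1 of 13 past 2-fold (7.16 to 18.5 CPM, runs apart). In the list of growth hormone and insulin-like growth factor genes none of 14 was, although Socs2, a feedback inhibitor of growth hormone signalling, went from 80.6 to 127.75 CPM with runs apart.

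**Figure D5:**
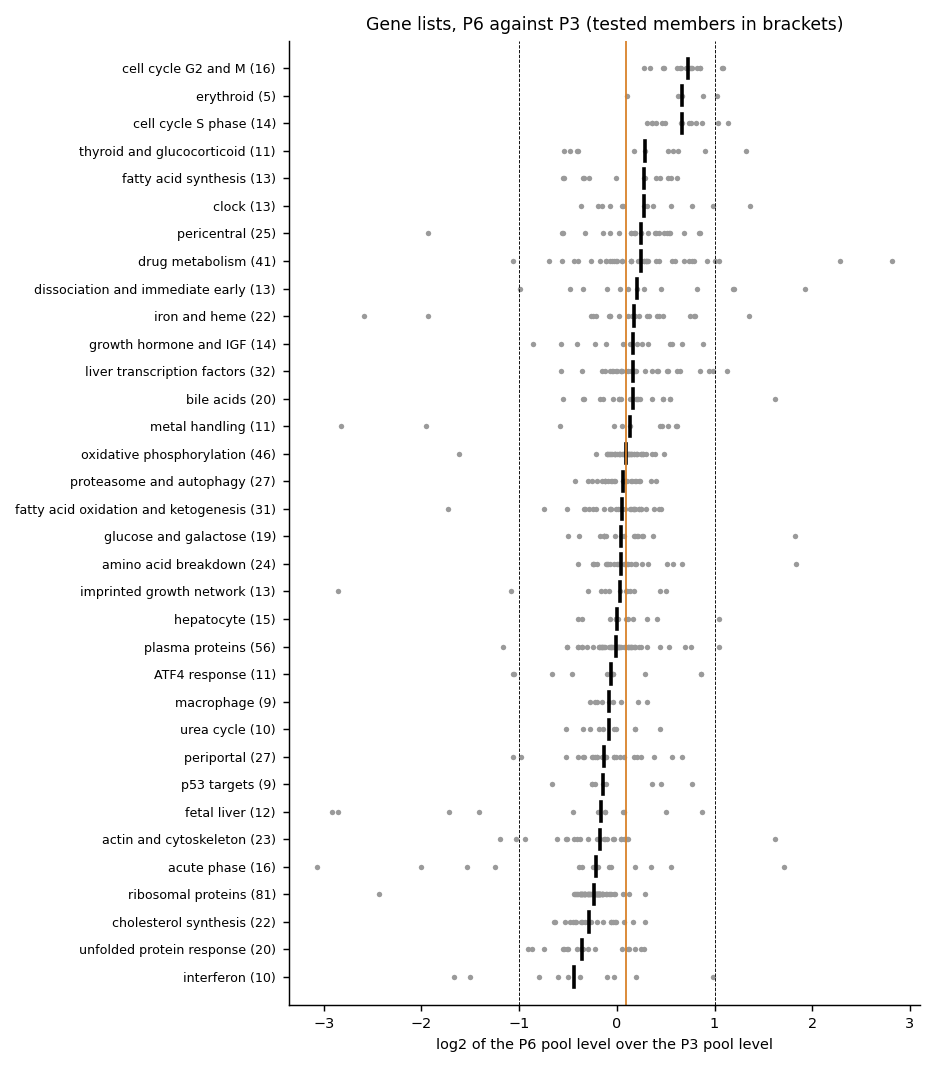
Log2 ratio of the P6 over the P3 pool level for each tested member (grey points) of the gene lists with at least 5 tested members, with the list median (black bar); the orange line is the median of all tested genes, 0.10, and dashed lines mark 2-fold. Of the plotted lists, the cell cycle and erythroid lists have the highest medians (0.66 to 0.73) and the interferon list the lowest (-0.44), although without the second P6 run the erythroid and S phase medians were -3.14 and -0.47, and without the first P3 run the interferon median was 0.94. Single members such as Tff3, Mt2 and Slc22a7 lie far from their lists.

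Markers of other cell types were low and uneven over runs. The erythroid list summed to 662 CPM at P3 and 1029 CPM at P6, with 1836 CPM in the second P6 run, where 3 of 66 cells held 85.4% of those counts and the other cells 282.3 CPM. Hbb-bt, a globin gene past 2-fold in the pools, was at 5.30 CPM in the first P6 run, and its log2 ratio of 1.02 became -1.70 without the 3 cells with over 1% of their counts from such lists. The macrophage list summed to 255.7, 46.1, 2.32 and 33.1 CPM in the P3 runs and to 135.6 and 34.2 CPM in the P6 runs. The endothelial list summed to 19.1 and 17.9 CPM, the leukocyte and platelet list to 13.9 and 5.20 CPM with Cd3e, Nkg7 and Ppbp at 0, and the cholangiocyte list to 61.005 and 67.8 CPM with Krt19 and Cftr at 0. The stellate list went from 17.9 to 43.97 CPM, of which Reln alone made 15.3 and 39.98 CPM. Reln encodes the secreted protein reelin, and it was seen in 52.4% and 67.2% of thinned cells. The part of other cell types or of islet RNA in the differences that move with these runs was not tested. Dlk1, Hamp, Mt1, Mt2, A2m and Lcn2 are among the genes that were highest in the run with counts of islet genes.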

How the data were processed

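The deposited mSTRT-seq table gives whole-number counts per gene symbol for single cells, not normalized by the authors. The submitters' processing notes name TopHat2 2.1.0, HISAT2 2.1.0, featureCounts 1.5.3 and 2.0.0, HTSeq 0.6.0, UMI-tools 0.5.0, SAMtools 1.3.1, Trimmomatic 0.39, TopHat and Bowtie2, and the builds GRCm38 and mm10, for the series as a whole. The sources used here do not say which tool made this table, whether strand was used, or whether a count is a read or a molecule, so near-identical genes and antisense partners are uncertain.

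The 92 spike-in rows were left out of 40824 genes, and 526 columns of other cells were not used. The cells of an age were summed and scaled to CPM. Genes with a mean of at least 5 CPM over P3 and P6 were compared, and a ratio of at least 2 was called; no test is possible with 1 sample an age. A pool at 0 was set to 3 counts. Intervals are exact Poisson (levels) and exact Clopper-Pearson (shares), at 95%. The latter treat cells as independent draws, although cells are not replicates of an age. For shares, each cell was thinned without replacement to the 10th percentile of cell totals. Runs were found in label order by least squares on the log10 spike-in share and log10 insulin CPM, each of at least 15 cells, taking the most runs for which neighbours differed at least 1.5-fold in a median. Run division was tried on a simulated series with steps placed as in the P3 division, and on a series without steps. Calling was tried on simulated Poisson counts without differences between cells or runs. These simulations check the code, not whether the runs or calls are right. The runs, and results that use them, were chosen after the data were seen. No doublet caller was run, since cells were picked singly.

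Genes named in the text are the 3 markers, the 15 largest ratios each way at a mean of at least 20 CPM, up to 4 members past 2-fold each way and the highest member of each list, the 10 largest changes each way in share, and the 5 genes closest to each marker over 11 ages. Genes of predicted or pseudogene symbol were counted, not described. Others were named after their values were seen. The members and the 40 lists were chosen with earlier results of these data known. Alternatives were other scalings (TMM by edgeR 4.0.16 in R 4.3.3, median of ratios), filters, cells, pseudocount and thinning.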

Additional observations from a re-analysis of the deposited data

How the results depend on the processing

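No paired analysis was possible because the numbers in the labels only count the cells of an age, and no test was made. As a percent of the genes tested, the higher genes (2.04%) became 1.301% with TMM scaling, 1.21% with median-of-ratios scaling (which moved the median of all genes to -0.04 and gave 1.34% lower), 4.53% at a mean of at least 1 CPM, 1.12% at 20 CPM, 3.22% without the second P3 run and 4.10% without the first P6 run. The lower genes (1.02%) became 2.20% at 1 CPM, 0.9555% at 20 CPM and 2.345% without the second P6 run. Under the other alternatives both counts stayed within 1.5 times. Shares differed by 20 points in 0.772% of genes, in 1.23% without thinning and by 30 points in 0.0972%. The neighbouring steps gave 7.97%, 11.8% at 1 CPM and 7.38% at 20 CPM. Of 100 genes named with a 2-fold difference, 85 kept it under TMM scaling, 79 without the third P3 run and 75 without the second P6 run.

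Ratios that changed sign rested on 1 run. Without the second P6 run the log2 ratio was -2.29 for Ccnb1, -2.22 for Ccnb2, -2.45 for Rrm2, -1.02 for Stmn1, -1.85 for Fos, -0.47 for Egr1 and -3.50 for Hbb-bt, which was -1.70 without cells rich in counts of other cell types. Without the fourth P3 run it was 1.13 for Cox5a, 1.63 for Rpl23a and 0.88 for Gm10073. Without the first it was 1.73 for Gbp2. Without the third it was 0.57 for Rps3a3 and 0.20 for Gm11361, and Ins1 and Ins2 were at or under 3 counts in the pools (0.16, from that limit alone). For genes near 5 CPM, counting error alone can move a ratio close to 2-fold across that limit, as for Adh4. Whether a count is a read or a molecule is not known, so the Poisson intervals may be too narrow even for counting error. The spread between animals is unknown.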

Other observations

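Counts of Tff3 were spread over cells less evenly than those of Khk. At P3 the 18 cells with the most Tff3 held 43.99% of its counts, and at P6 the top 14 cells held 53.4%. For Khk these shares were 29.1% and 28.6%. Within runs, Spearman's rho of Tff3 with Tmsb10 lay between -0.18 and 0.23 and with Apcs between -0.17 and 0.19, whereas that of Mt1 with Mt2 lay between 0.46 and 0.91 (28 to 66 cells a run, given as a description).

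Genes outside the lists were among those higher with runs apart. Prom1, a membrane protein of progenitor cells, went from 14.1 to 33.96 CPM, Fgf1, a growth factor, from 19.9 to 40.1 CPM, Inhbb, a subunit of activin and inhibin, from 11.9 to 32.7 CPM, and Dpp4, a peptidase that cuts incretins, from 22.8 to 48.2 CPM. Hsd17b6, a steroid dehydrogenase, went from 81.5 to 198.97 CPM and Ociad2 from 27.3 to 63.2 CPM. Under TMM scaling Fgf1 and Dpp4 fell short of 2-fold, and the log2 ratio of Inhbb was 0.73 without the first P6 run, against 1.46 with it. Fgf21, a hormone of the fasting and fat-fed liver, was at 44.4, 86.4, 5.42 and 79.8 CPM in the P3 runs and at 110.5 and 103.6 CPM in the P6 runs, short of 2-fold in the pools.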
